A study of Homo sapiens with 10 samples.

Results

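Protocadherins are a large branch of the cadherin family of adhesion proteins, and 66 protein-coding genes whose symbol starts with PCDH were taken from the 58735 genes of the table. They fall into 15 alpha, 16 beta and 22 gamma genes, which lie in consecutive clusters on chromosome 5, and 13 non-clustered genes outside these clusters. Their transcripts were measured by poly(A) RNA sequencing in cultured CH157-MN cells, a human line derived from a meningioma. Of the 10 libraries, 5 came from cells given the humanised antibody-drug conjugate SSTR2-MMAF at 100 nM and harvested 3 days later (ADC), and 5 came from cells given phosphate-buffered saline (PBS), for which no separate harvest day is given. The conjugate is an antibody against the somatostatin receptor SSTR2 that carries monomethyl auristatin F, an inhibitor of tubulin polymerisation. The labels describe no genetic change in either group and give no culture of origin for each replicate, so p-values describe the spread among these samples alone, and that spread may be technical.

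Clustered protocadherins are single-pass membrane proteins that bind an identical partner on the facing cell. In neurons each cell switches on a few of them, through promoter choice by the insulator protein CTCF and cohesin, and the resulting combination serves as a cell surface identity in dendrite self-avoidance. In the alpha and gamma clusters each gene has its own large first exon, which encodes the extracellular and membrane-spanning parts, and this exon is spliced to constant exons that all genes of the cluster share and that encode a common cytoplasmic end. Beta genes lack such constant exons. Non-clustered protocadherins, among them the delta group, have separate loci and roles in adhesion and cell movement, and loss of clustered and non-clustered protocadherins has been described in tumours.

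The shared exons bear on every value that follows, so the first constant exon of each cluster is shown, read on the plus strand of hg38 from GENCODE release 29.
gamma exon, chr5:141494807-141494865: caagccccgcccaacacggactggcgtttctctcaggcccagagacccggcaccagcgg
alpha exon, chr5:140978949-140979007: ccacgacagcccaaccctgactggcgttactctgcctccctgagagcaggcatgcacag
The 59-base gamma exon is annotated in all 22 gamma genes with the same letters, and the 59-base alpha exon in all 15 alpha genes. At 39 of the 59 positions (66.1%) the alpha and the gamma exon hold the same base. A read that lies in such an exon cannot be given to a single gene. Of the exonic bases of the gamma genes 27.6% to 64.4% are shared with another gene on the same strand, and of the alpha genes 21.3% to 56.6%. PCDHGA12 had 2 counts over all 10 libraries although 45.3% of its exonic bases are shared, so reads from shared exons were not added to every gene that holds them. Whether such reads were left out or given to 1 gene is not stated in the sources. Levels between genes are given below per kilobase of exon that no other gene on the strand shares, and they would be too high for a gene that had received shared reads.

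Upstream of the first exons, the promoters of most but not all clustered genes are known to hold a conserved element with the core CGCT. Windows from 100 to 21 bases before the RefSeq start (GRCh38.p14, all on the plus strand) are shown for the gamma genes on which the results turn, for alpha and beta genes as a comparison, and for the non-clustered gene PCDH7, with CGCT in capitals.
PCDHGC3, chr5:141475866-141475945: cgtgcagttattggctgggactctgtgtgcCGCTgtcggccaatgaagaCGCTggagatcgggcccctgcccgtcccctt
PCDHGB5, chr5:141397847-141397926: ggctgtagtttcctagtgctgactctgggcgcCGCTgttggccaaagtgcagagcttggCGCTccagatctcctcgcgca
PCDHGB6, chr5:141407921-141408000: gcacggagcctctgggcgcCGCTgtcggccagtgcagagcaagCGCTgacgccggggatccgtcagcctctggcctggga
PCDHGB1, chr5:141349999-141350078: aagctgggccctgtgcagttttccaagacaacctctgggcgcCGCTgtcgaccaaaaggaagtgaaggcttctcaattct
PCDHGA2, chr5:141338660-141338739: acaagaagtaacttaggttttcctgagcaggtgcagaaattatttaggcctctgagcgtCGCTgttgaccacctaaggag
PCDHGA7, chr5:141382642-141382721: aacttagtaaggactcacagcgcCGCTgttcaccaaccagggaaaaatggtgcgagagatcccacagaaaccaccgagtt
PCDHGA4, chr5:141354921-141355000: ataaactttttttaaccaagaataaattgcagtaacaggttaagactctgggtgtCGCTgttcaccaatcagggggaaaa
PCDHA11, chr5:140868857-140868936: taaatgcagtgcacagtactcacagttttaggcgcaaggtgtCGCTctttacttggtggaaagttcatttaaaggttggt
PCDHA6, chr5:140827860-140827939: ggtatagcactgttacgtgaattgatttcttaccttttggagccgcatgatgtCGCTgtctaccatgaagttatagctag
PCDHB13, chr5:141213819-141213898: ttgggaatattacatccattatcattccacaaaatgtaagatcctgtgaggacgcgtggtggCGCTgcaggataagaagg
PCDHB2, chr5:141094515-141094594: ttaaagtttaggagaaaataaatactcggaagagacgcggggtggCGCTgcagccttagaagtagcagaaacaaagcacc
PCDH7, chr4:30720269-30720348: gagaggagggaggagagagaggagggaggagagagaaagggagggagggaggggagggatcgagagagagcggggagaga
A promoter was found for 58 of the 66 genes, and none was matched for PCDH10, PCDH20, PCDHA3, PCDHA13, PCDHB6, PCDHB11, PCDHGA12 and PCDHGC5. On the gene strand CGCT stood in this window in 19 of 20 gamma promoters, 12 of 13 alpha promoters, 12 of 14 beta promoters and 3 of 11 non-clustered promoters (27.3%). Of 27305 promoters, taken as 1 per gene symbol over the whole genome, 22.8% held it in the same window. Over the full 300 bases and both strands, 69.3% of all promoters held CGCT, so the letters alone are common. The counts are of these letters, and a match need not be the conserved element.

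Longer runs around the core differed by class. They were spelled out after the promoters had been read, from PCDHA6, PCDHB13 and PCDHGA2, so their counts are a description. CATGATGTCGCT occurred in 8 of 27305 promoters (0.0293%, either strand), and all 8 are alpha genes. GGTGGCGCTGC occurred in 29 promoters (0.106%, either strand), 11 of them among the 14 matched beta promoters. CGCTGTTNACC, where N is any base, occurred in 18 promoters (0.0659%, either strand). Of these, 8 were among the 11 matched gamma A promoters and 0 among the 7 gamma B promoters. All 3 runs contain CGCT, so each of their matches is also a match of the core. The window of PCDHGC3 held 2 copies of CGCT, as did those of PCDHGB5 and PCDHGB6, while PCDHGB1 and PCDHGA4 had 1 copy each. The core was also present at silent genes: PCDHA6, which had 0 counts in every library, holds it at position -47 from its start.

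**Figure D1:**
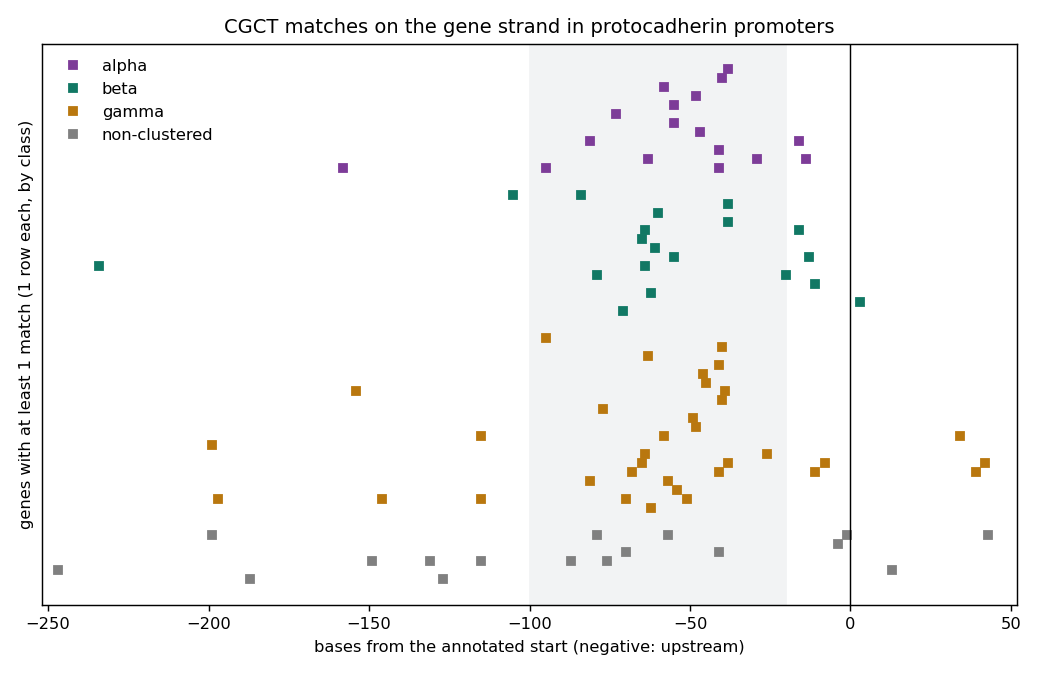
Positions of CGCT on the gene strand in the promoters of protocadherin genes, 1 row per gene with at least 1 match; the x axis is the distance in bases from the annotated start and the grey band is the window from 100 to 21 bases upstream. In 19 of 20 gamma and 12 of 13 alpha promoters a match lies in the band, against 3 of 11 non-clustered promoters.

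Total counts were 28638057 to 36463724 per ADC library and 28262162 to 34473795 per PBS library. At this depth 3 counts, the limit that an observed 0 allows, are 0.0823 to 0.105 CPM in ADC and 0.0871 to 0.106 CPM in PBS libraries (CPM, counts scaled to the same library total, with TMM factors where a level is given), which covers counting error only. Low counts were even in 65.4% to 67.3% of cases per library, so both mates of a read pair may have been counted and such limits are then too low. Of 12 meningioma or arachnoid markers VIM was abundant, the drug target SSTR2 had 10 to 20 counts in ADC and 3 to 22 counts in PBS libraries, and PGR, S100B, SLC22A8 and MYOC had 0 in every library. Of the 3 tested 0 were called by edgeR or by DESeq2, and 2 were higher in ADC at an unadjusted p under 0.05. Neuron markers were low: 12 of them summed to 5.54 to 7.46 CPM in ADC and 2.9 to 5.3 CPM in PBS libraries, with RBFOX3, ELAVL4 and DCX at 0. The synaptic genes SNAP25, SYT1 and SYP made up most of this sum and rose in ADC (3 of 4 tested neuron markers, 0 fell, with 0 lower at an unadjusted p under 0.05 and 0 lower with DESeq2), and their part in the results below was not tested. Over all 14504 tested genes edgeR called 10.8% higher and 10% lower in ADC. SYT1 lost its call in 5 of the 10 omissions of a single library. Olfactory receptor genes, which most tissues do not express, summed to 0.896 to 1.8 CPM in ADC and 1.59 to 2.29 CPM in PBS libraries over 386 genes.

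CH157-MN cells expressed the gamma cluster and hardly any alpha or beta gene. Of the counts of all 66 genes the gamma cluster held 87.4% ± 1.48 in ADC and 86.5% ± 1.17 in PBS libraries (SD, n = 5 each, not corrected for length). PCDHGC3 alone held 55.6% ± 2.46 in ADC and 54.8% ± 2.62 in PBS libraries. The alpha cluster held 0.712% ± 0.154 in ADC and 0.633% ± 0.571 in PBS libraries, and the beta cluster 2.45% ± 0.355 in ADC and 2.67% ± 1.14 in PBS libraries. Of the 66 genes, 12 had 0 counts in all 10 libraries, among them 7 alpha genes (PCDHA2, PCDHA3, PCDHA4, PCDHA6, PCDHA7, PCDHA9 and PCDHA13), 1 beta gene (PCDHB1) and 0 gamma genes.

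PCDHGC3, a C-type gamma protocadherin that many tissues express, was the most abundant member per kilobase of unshared exon. It reached 11.6 CPM per kb in ADC and 10.1 CPM per kb in PBS libraries. PCDHGB5 followed with 2.98 CPM per kb in ADC and 2.59 CPM per kb in PBS, PCDHGB1 with 1.22 and PCDHGB6 with 0.782 CPM per kb in ADC, against 1.16 and 0.681 CPM per kb in PBS. Per kilobase of the whole deposited exon length PCDHGC3 had 6.96 CPM in ADC and 6.06 CPM in PBS libraries and was again the highest. PCDHGC3 stood 3.46 to 5.18 times above PCDHGB5 within each ADC library and 2.86 to 5.03 times within each PBS library, on the same scale. The ranges over the 10 libraries did not overlap between PCDHGC3 and PCDHGB5, nor between PCDHGB5 and PCDHGB1, whereas PCDHGB1 and PCDHGB6 overlapped, as did PCDHGB6 and PCDHGA7. By level in CPM, 61.4% of the 14504 tested genes lay below PCDHGC3 and 35.1% below PCDHGB5. Near-silent genes lay next to abundant ones in the stretch around PCDHGB5 and PCDHGB6: between PCDHGB5 and PCDHGB6 lies PCDHGA9 with 0 to 10 counts in ADC and 0 to 12 counts in PBS libraries, and just before PCDHGB5 lies PCDHGA8 with 0 to 5 counts in ADC and 0 in PBS libraries. These neighbours were chosen after their values were seen.

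**Figure D2:**
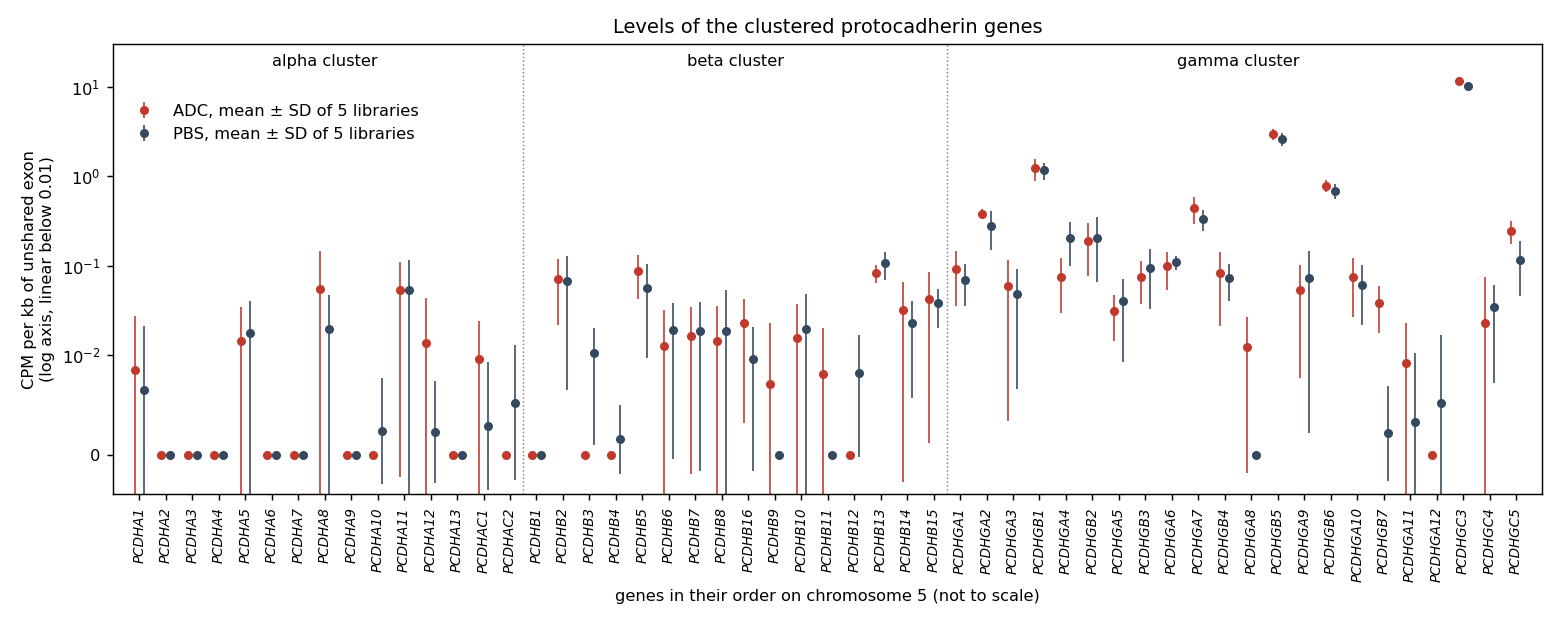
Level of each clustered protocadherin gene in CPM per kb of exon not shared with another gene (log axis, linear below 0.01), in gene order along chromosome 5, as mean and SD of 5 ADC and 5 PBS libraries; SD bars that reach below the axis are clipped. PCDHGC3 stands highest, at 11.6 CPM per kb in ADC and 10.1 CPM per kb in PBS, and the alpha genes lie at or near 0.

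The design asks how the cells differed 3 days after the conjugate. Of the 66 genes 14 passed the filter on low counts and were tested with edgeR: 0 alpha, 2 beta, 10 gamma and 2 non-clustered genes. PCDHGC3 rose and PCDHGA4 fell, and the other 12 were not called at an adjusted p under 0.05. Over all 14504 tested genes 20.8% were called, 10.8% higher and 10% lower in ADC, and 2 of 14 is not above that share. Of all calls 51.8% were higher, against 63.3% with total counts as the only scaling. The 13 tested members other than PCDHGC3 averaged 0.283 to 7.43 CPM, and of the 5034 tested genes in that range 8.92% were called. The median log2 fold change was 0.15 over the 14 members, and -0.00217 over all tested genes. The groups' values did not overlap for 0 of the 14, against 14.2% of all tested genes.

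PCDHGC3 had 38.3, 34.5, 36.8, 40.9 and 38.7 CPM in ADC libraries, against 31.5, 32.1, 35.1, 35.5 and 30.5 CPM in PBS libraries. Every ADC library except replicate 2 lay above every PBS library. The mean was 37.8 ± 2.38 CPM in ADC and 32.9 ± 2.24 CPM in PBS (SD, n = 5 each), a log2 fold change of 0.20 (SE 0.06, edgeR adjusted p = 0.0163), or 1.15-fold. The call was lost without PBS replicate 5 (log2 fold change 0.173, edgeR adjusted p = 0.0591) and without ADC replicate 4 (0.175, edgeR adjusted p = 0.0519), and it held without each of the other 8 libraries. On hg38 the gene (ENSG00000240184) spans chr5:141475947-141512979 on the plus strand. In bulk RNA a change in the number of cells that express a gene and a change in RNA per cell cannot be told apart.

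PCDHGA4, an A-type gamma gene, had 6, 4, 4, 12 and 6 counts in ADC libraries, against 11, 8, 26, 15 and 27 counts in PBS libraries. The groups overlapped through ADC replicate 4 and PBS replicates 1 and 2. Its level was 0.204 ± 0.123 CPM in ADC and 0.555 ± 0.283 CPM in PBS (SD, n = 5 each), a log2 fold change of -1.45 (SE 0.51, edgeR adjusted p = 0.0393). The call was lost in 7 of the 10 omissions of a single library (ADC replicate 1, 2, 3 or 5, or PBS replicate 3, 4 or 5, at edgeR adjusted p of 0.062 to 0.131, with log2 fold changes of -1.46 to -1.22), and with the replicate number as a block (adjusted p = 0.0525). With no filter on low counts its adjusted p was 0.0918, and with every count halved the gene did not pass the filter. The gene (ENSG00000262576) spans chr5:141355025-141512979 on hg38, on the plus strand, and 44.6% of its exonic bases are shared with other gamma genes.

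**Figure D3:**
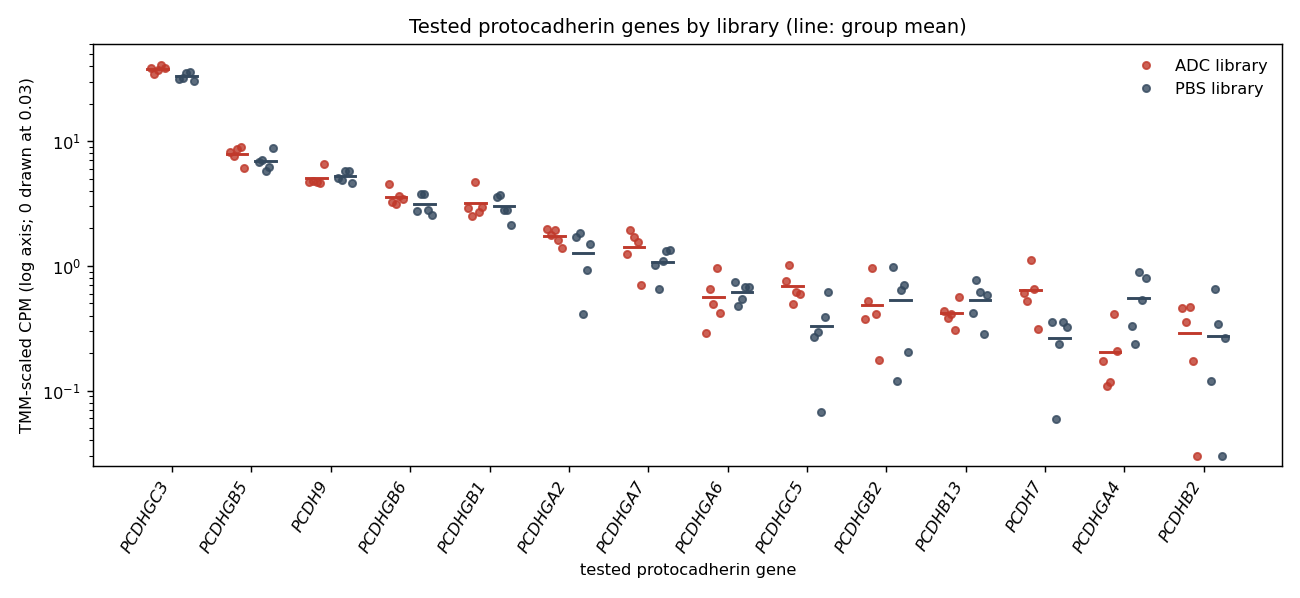
TMM-scaled CPM (log axis, 0 drawn at 0.03) of the 14 tested protocadherin genes in each of 5 ADC and 5 PBS libraries, with lines at the group means. The ADC points of PCDHGC3 lie at 34.5 to 40.9 CPM and its PBS points at 30.5 to 35.5 CPM, and the groups overlap for every gene shown.

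PCDHGC5, another C-type gamma gene, had 26, 37, 17, 18 and 17 counts in ADC libraries, against 9, 10, 2, 11 and 21 counts in PBS libraries. PBS replicate 5 alone reached into the ADC range. The log2 fold change was 1.07 (SE 0.44) and was not called (edgeR adjusted p = 0.0872), though without PBS replicate 5 it was 1.43 at adjusted p = 0.0406. The other omissions of a single library gave adjusted p of 0.0907 to 0.222. The remaining C-type gene, PCDHGC4, had 0 to 11 counts in ADC and 0 to 6 counts in PBS libraries and was not tested.

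The B-type genes PCDHGB5, PCDHGB1 and PCDHGB6 were the most abundant gamma genes after PCDHGC3. PCDHGB5 had 8.24, 7.63, 8.72, 9.0 and 6.13 CPM in ADC libraries, against 6.84, 7.08, 5.72, 6.22 and 8.74 CPM in PBS libraries. Replicate 5 was the lowest ADC and the highest PBS library, and the groups overlapped. The log2 fold change was 0.20 (SE 0.12, edgeR adjusted p = 0.285). PCDHGB6 averaged 3.6 ± 0.537 CPM in ADC and 3.13 ± 0.591 CPM in PBS, and PCDHGB1 averaged 3.17 ± 0.899 CPM in ADC and 3.0 ± 0.65 CPM in PBS (SD, n = 5 each). Their log2 fold changes of 0.20 (SE 0.17) and 0.08 (SE 0.19) were within the spread between libraries (edgeR adjusted p = 0.444 and 0.821). The last tested B-type gene, PCDHGB2, had 5 to 33 counts in ADC and 4 to 33 counts in PBS libraries, with a log2 fold change of -0.10 (SE 0.50, edgeR adjusted p = 0.923).

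The other tested A-type genes were also low, though each had a higher mean CPM than PCDHGA4, and they were not called. PCDHGA2 averaged 1.74 ± 0.234 CPM in ADC and 1.27 ± 0.596 CPM in PBS, and PCDHGA7 averaged 1.43 ± 0.477 CPM in ADC and 1.08 ± 0.281 CPM in PBS (SD, n = 5 each). Their log2 fold changes were 0.44 (SE 0.30, edgeR adjusted p = 0.318) and 0.40 (SE 0.30, edgeR adjusted p = 0.381). PCDHGA2 had 68, 65, 66, 47 and 40 counts in ADC libraries, against 57, 62, 12, 26 and 51 counts in PBS libraries, so the PBS libraries were the more spread out. PCDHGA6 had 10 to 28 counts in ADC and 16 to 25 counts in PBS libraries, with a log2 fold change of -0.14 (SE 0.39, edgeR adjusted p = 0.841). By type the median log2 fold change was 0.13 over the 4 tested A genes, 0.14 over the 4 tested B genes and 0.64 over PCDHGC3 and PCDHGC5.

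**Figure D4:**
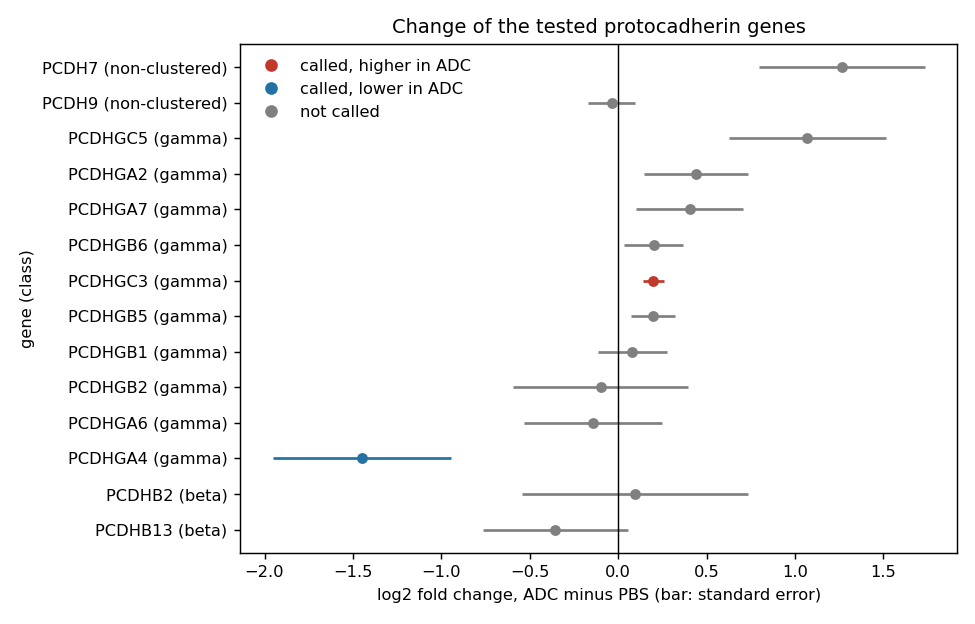
Log2 fold change (ADC minus PBS, x axis) of the 14 tested protocadherin genes from the edgeR fit over all tested genes, with bars of 1 standard error on each side; red is called higher, blue called lower and grey not called at an adjusted p under 0.05. PCDHGC3 at 0.20 is red with the shortest bar, and PCDHGA4 at -1.45 is blue.

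The other 12 gamma genes had counts but did not pass the filter, and had up to 59 counts summed over the ADC libraries and up to 45 over the PBS libraries. PCDHGA1 had 59 counts over the ADC and 44 over the PBS libraries, and PCDHGA10 had 55 over the ADC and 45 over the PBS libraries. PCDHGB7, singled out after its values were seen, had 2, 6, 6, 2 and 2 counts in ADC libraries, against 1, 0, 0, 0 and 0 counts in PBS libraries. All of its ADC libraries lay above all of its PBS libraries, at a depth where 3 counts are the limit of a 0. Without the filter on low counts its edgeR adjusted p was 0.135, and that of PCDHGA8, with 3, 5, 0, 0 and 1 counts in ADC and 0 in each PBS library, was 0.131.

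Summed over its 22 genes the gamma cluster reached 60.5, 56.1, 60.7, 63.6 and 56.1 CPM in ADC libraries, against 51.3, 52.2, 52.4, 53.4 and 50.5 CPM in PBS libraries. Every ADC sum lay above every PBS sum, and the ratio of the means was 1.14; no test was made on sums. As the sum includes PCDHGC3, its separation is not independent of that gene. Without PCDHGC3 the gamma genes summed to 21.6 ± 2.46 CPM in ADC and 19.0 ± 1.3 CPM in PBS (SD, n = 5 each), also 1.14-fold, and the groups overlapped through ADC replicate 5 at 17.5 CPM. B-type genes summed to 15.7 ± 1.93 CPM in ADC and 14.0 ± 0.899 CPM in PBS, and A-type genes to 5.13 ± 0.845 CPM in ADC and 4.58 ± 0.55 CPM in PBS, both with overlap. The share of PCDHGC3 among all protocadherin counts differed by less than the spread between libraries, at 52.9% to 58.7% in ADC and 52.3% to 58.0% in PBS libraries.

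**Figure D5:**
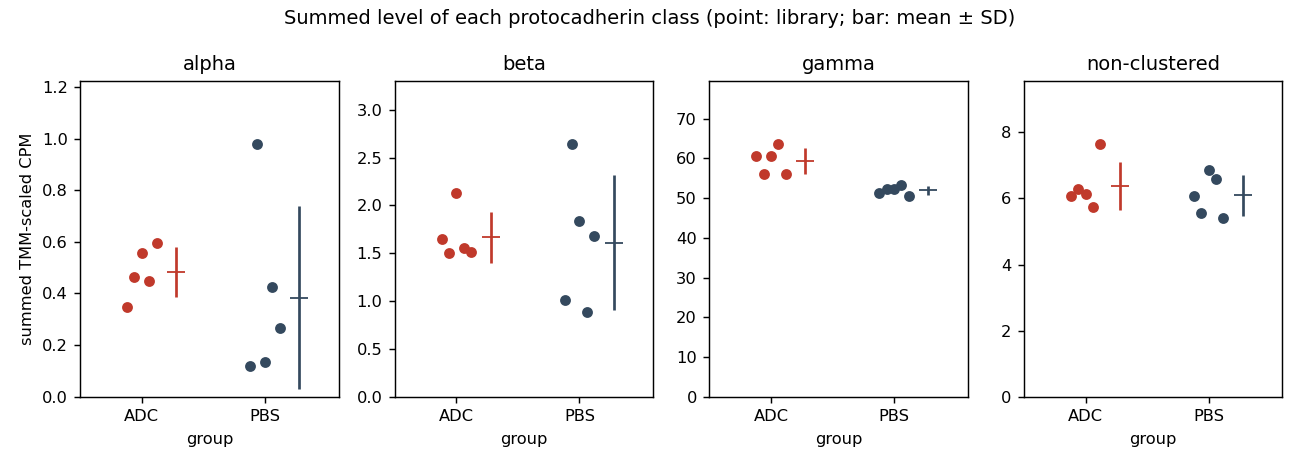
Summed CPM of the alpha, beta, gamma and non-clustered protocadherin genes in each library, with 5 ADC and 5 PBS points per class and the mean ± SD of the group beside them; each panel has its own axis from 0. Gamma sums are 56.1 to 63.6 CPM in ADC and 50.5 to 53.4 CPM in PBS, and the other classes overlap.

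Beta protocadherins, single-exon genes in the main, were close to the detection limit. Of 16 genes 15 had a count somewhere and 2 were tested, PCDHB13 and PCDHB2. PCDHB13 had 15, 14, 14, 9 and 16 counts in ADC libraries, against 14, 26, 18, 8 and 20 counts in PBS libraries, a log2 fold change of -0.36 (SE 0.41, edgeR adjusted p = 0.599). PCDHB2 had 16, 13, 16, 5 and 0 counts in ADC libraries, against 4, 22, 10, 0 and 9 counts in PBS libraries, a log2 fold change of 0.10 (SE 0.64, edgeR adjusted p = 0.941). Both ranged as widely within a group as between groups. No beta gene was called, none reached an unadjusted p under 0.05 (0 of 2) and DESeq2 called 0, giving PCDHB2 no adjusted p. The beta cluster summed to 1.67 ± 0.268 CPM in ADC and 1.61 ± 0.707 CPM in PBS (SD, n = 5 each). Outside the tested pair PCDHB5 had the most counts, with 48 over the ADC and 31 over the PBS libraries.

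The alpha cluster, in neurons a target of the same promoter choice, was near the detection limit. No alpha gene was tested, and 0 of 15 had a count in every library. PCDHA11 had the most, with 0, 14, 13, 3 and 1 counts in ADC libraries, against 2, 18, 2, 6 and 1 counts in PBS libraries. Both groups ran from next to nothing to 14 or more, so a difference was not detectable at this depth. PCDHA8 followed with 0, 3, 0, 2 and 16 counts in ADC libraries, against 0, 0, 0, 4 and 4 counts in PBS libraries, so ADC replicate 5 alone held most of its counts. The C-type alpha genes PCDHAC1 and PCDHAC2 had 6 and 0 counts over the ADC libraries, against 2 and 3 over the PBS libraries. Summed over the cluster the level was 0.482 ± 0.0977 CPM in ADC and 0.385 ± 0.354 CPM in PBS (SD, n = 5 each). PBS replicate 2 had the highest sum, at 0.978 CPM, and PBS replicate 1 the lowest, at 0.119 CPM. Without PBS replicate 2 the PBS mean was 0.236 CPM.

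Among the non-clustered genes PCDH9 and PCDH7 of the delta1 group were tested. PCDH9 had 4.71, 4.81, 4.68, 4.64 and 6.59 CPM in ADC libraries, against 5.08, 4.86, 5.72, 5.76 and 4.62 CPM in PBS libraries. Apart from ADC replicate 5 the ADC libraries lay at the low end of the PBS range, and the log2 fold change was -0.04 (SE 0.13, edgeR adjusted p = 0.891). PCDH9 (ENSG00000184226) spans chr13:66302834-67230445 on the minus strand. PCDH7 had 21, 19, 38, 19 and 9 counts in ADC libraries, against 12, 2, 7, 10 and 11 counts in PBS libraries. Every ADC library except replicate 5 was above every PBS library. The log2 fold change was 1.27 (SE 0.47, edgeR adjusted p = 0.0525), which just missed the threshold, while DESeq2 gave an adjusted p of 0.0418 and leaving out ADC replicate 5 gave 0.0348 at a log2 fold change of 1.43. The other omissions of a single library gave adjusted p of 0.0613 to 0.205, the highest without ADC replicate 3 at a log2 fold change of 0.975, and no filter on low counts gave 0.104. PCDH7 (ENSG00000169851) spans chr4:30720415-31146805 on the plus strand, and no other gene shares its exons.

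The other non-clustered genes were near 0. PCDH17, PCDH10 and PCDH18 of the delta2 group had 25, 23 and 20 counts over the ADC libraries, against 35, 26 and 18 over the PBS libraries. PCDH19, a delta2 gene mutated in an epilepsy, had 0 counts over the ADC and 2 over the PBS libraries. PCDH12, an endothelial protocadherin, had 21 counts over the ADC libraries, of which replicate 2 held 13, and 7 over the PBS libraries. Of its 6820 exonic bases 108 overlap exons of the expressed gene RNF14 on the other strand. Without known strand, reads in that overlap cannot be told apart from RNF14 reads. PCDH8, PCDH20 and PCDH11X had 0 in every library, but 95.8% of the exonic bases of PCDH20 are shared with another gene on the strand, so its 0 rests on the remaining 201 bases if shared reads were left out. The class summed to 6.38 ± 0.735 CPM in ADC and 6.1 ± 0.619 CPM in PBS (SD, n = 5 each).

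Genes of the machinery that reads clustered protocadherin promoters were all expressed. Of 11 genes, namely CTCF and those of cohesin and its loading and release factors, 1 rose and 1 fell, with a median log2 fold change of -0.02. Among all 14504 tested genes 10.8% were called higher and 10% lower. CTCF averaged 78.4 ± 3.7 CPM in ADC and 83.3 ± 4.04 CPM in PBS, a log2 fold change of -0.09 (SE 0.04, edgeR adjusted p = 0.17). NIPBL, a cohesin loader, averaged 102 ± 6.65 CPM in ADC and 91.8 ± 9.22 CPM in PBS and rose (log2 fold change 0.16, SE 0.05, edgeR adjusted p = 0.0359). STAG1, a cohesin subunit, averaged 109 ± 6.95 CPM in ADC and 119 ± 7.93 CPM in PBS and fell (-0.13, SE 0.05, edgeR adjusted p = 0.0448). Each of these calls was lost without any of several single libraries, 6 for NIPBL (adjusted p up to 0.137) and 7 for STAG1 (up to 0.156), and STAG1 lost it also with total counts as the only scaling.

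A list of 14 genes linked to silencing held DNA methyltransferases and heterochromatin factors. It also held TET1, TET2 and TET3, which oxidise methylated DNA and so act against such silencing, and none of these was called. Of the 14 genes 1 rose and 3 fell, with a median of -0.05. The shares over all tested genes were 10.8% higher and 10% lower. DNMT3A, a de novo DNA methyltransferase, averaged 22.7 ± 0.994 CPM in ADC and 19.3 ± 1.24 CPM in PBS and rose (log2 fold change 0.23, SE 0.07, edgeR adjusted p = 0.0162). CBX5, which encodes the heterochromatin protein HP1 alpha, averaged 176 ± 6.71 CPM in ADC and 202 ± 4.74 CPM in PBS and fell (-0.20, SE 0.03, edgeR adjusted p = 6.68e-05). TRIM28, a corepressor, averaged 463 ± 16.0 CPM in ADC and 530 ± 38.4 CPM in PBS and fell (-0.20, SE 0.04, edgeR adjusted p = 0.000368). WIZ, a zinc finger protein that binds the G9a complex, fell by 0.13 on the log2 scale (SE 0.04, edgeR adjusted p = 0.0194), a call lost without ADC replicate 2 and with total counts as the only scaling.

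Of 17 cytoplasmic partners and sheddases, through which protocadherins signal and are cleaved, 1 rose and 0 fell, with a median of -0.02. The riser was FYN, a Src-family kinase, at 29.6 ± 1.21 CPM in ADC and 24.8 ± 0.897 CPM in PBS (log2 fold change 0.25, SE 0.06, edgeR adjusted p = 0.00265). Of the 17 genes 3 were lower at an unadjusted p under 0.05, and DESeq2 called 2 lower. Over all tested genes edgeR called 10.8% higher and 10% lower.

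The other cadherins include abundant genes. Of 9 tested large cadherins 3 rose and 2 fell, with a median log2 fold change of 0.33. For this list and the next, the shares over all tested genes were 10.8% higher and 10% lower. CELSR1 and CELSR3, planar polarity cadherins, rose, at 77.8 ± 3.84 and 11.9 ± 1.3 CPM in ADC, against 66.2 ± 2.47 and 8.29 ± 0.529 CPM in PBS (log2 fold changes 0.23 and 0.52, edgeR adjusted p = 0.000264 and 0.000249). CLSTN3, a calsyntenin, rose by 0.44 on the log2 scale (edgeR adjusted p = 0.0357, lost without any of 8 single libraries). FAT1 and FAT4, giant cadherins, fell by 0.14 and 0.26 on the log2 scale (edgeR adjusted p = 0.025 and 0.0202), FAT1 losing its call without any of 4 single libraries or with total counts as the only scaling, and FAT4 without PBS replicate 5 or ADC replicate 5. Of 7 tested genes on a list of classical and related cadherins 1 rose and 1 fell, with a median of 0.17. CDH13, a GPI-anchored cadherin, rose to 62.5 ± 3.31 CPM in ADC, against 40.5 ± 1.44 CPM in PBS (log2 fold change 0.62, SE 0.05, edgeR adjusted p = 4.83e-11). CDH2, N-cadherin, fell to 115 ± 2.95 CPM in ADC, against 125 ± 4.02 CPM in PBS (-0.12, SE 0.04, edgeR adjusted p = 0.0172), a call lost without PBS replicate 1 and with total counts as the only scaling.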

How the data were processed

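Poly(A) RNA was captured with poly-T beads and primed with random hexamers, per the labels' protocols. The protocol text allows for stranded or unstranded libraries. The authors deposited whole-number counts per gene, not normalised. HISAT2, HISAT, TopHat2 and hg38 are named in the submitters' processing notes without a role. Which counter made the table, and with what strand setting, is not given in the sources. Total counts were 28262162 to 36463724 per library.

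Genes were filtered with filterByExpr (minimum count 10), which left 14504. Libraries were scaled by TMM and groups of 5 compared with edgeR 4.0.16 in R 4.3.3, by its quasi-likelihood test with Benjamini-Hochberg adjustment over all tested genes and a threshold of 0.05. Each comparison used the labels' groups, with no covariate. The fit was tested on simulated data, where 7.29% of edgeR calls and 12.1% of DESeq2 calls were false at the threshold of 0.05. Of simulated 1.2-fold changes edgeR recovered 44%. The simulation changed a far smaller share of genes than was called in these data, and recovery was taken over tested genes of all levels. These figures therefore do not carry over to the low protocadherins. Exon sharing came from GENCODE 29, which holds all 58735 deposited identifiers, and promoters from RefSeq. CPM per kb divides by the exon length that no other gene on the strand shares, an alternative to the deposited length, and is given unless the whole length is named. Alternatives were total-count scaling, DESeq2 1.42.0 and its size factors, other filters, halved counts, a replicate block and leaving out each library. Every called protocadherin was named, with the 3 tested genes of highest CPM in each class, and in related lists CTCF and the called genes, up to 3 per direction. All other genes named were chosen after their values were seen. The members and lists were chosen with earlier results of these data known.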

Additional observations from a re-analysis of the deposited data

Results flagged for a closer look

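In 4 of 36 groups of 5 libraries 1 library stood apart from the others, with a gap to its nearest neighbour above 0.71 of the group's range. Chance flags about 5% of groups. For PCDH9, ADC replicate 5 had 6.59 CPM and the other ADC libraries 4.64 to 4.81 CPM. This gene also set the summed non-clustered level of ADC replicate 5, at 7.64 CPM, while the other ADC sums were 5.74 to 6.29 CPM. For PCDHGB1, ADC replicate 3 had 4.74 CPM and the other ADC libraries 2.49 to 2.98 CPM. The summed beta level of ADC replicate 3 was 2.13 CPM, with 1.5 to 1.65 CPM in the other ADC libraries.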

How the results depend on the processing

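The rise of PCDHGC3 was called under total-count scaling, DESeq2, DESeq2's size factors, each other filter, halved counts and the block, at log2 fold changes of 0.198 to 0.222, and in 8 of 10 omissions of a single library. No called gene named in the text changed sign under any setting run. Of the uncalled protocadherins PCDHGB2, PCDHGB1, PCDHB2, PCDHGA6 and PCDH9 changed sign when single libraries were left out, with log2 fold changes of -0.494 to 0.258, -0.111 to 0.174, -0.206 to 0.696, -0.406 to 0.024 and -0.141 to 0.002 in that order. Protocadherins called higher numbered 1, with 2 by DESeq2, which added PCDH7 and so made 1 non-clustered call where there had been 0. Leaving out single libraries gave 0 to 2 higher calls, 0 to 1 in the gamma cluster and 0 to 1 among non-clustered genes. Protocadherins called lower, PCDHGA4 in the gamma cluster, numbered 1, with 0 without a low-count filter, at a mean of at least 1 CPM and with halved counts (the gene was not tested in the last pair), and 0 to 1 when single libraries were left out. With the replicate number as a block it was also 0, and over all genes 1632 were then higher and 1520 lower, against 1562 and 1456 without the block. The numbers gave no sign of pairing: same-numbered ADC and PBS libraries had deviations correlated at -0.0191 to 0.0226, and 1 of 10 libraries correlated best with its own number. Under total-count scaling 63.3% of all calls were higher (1835 higher and 1063 lower), against 51.8% under TMM. Leaving out single libraries gave 1311 to 1595 higher and 1180 to 1385 lower calls over all genes. Depth limits most of the family: 52 of 66 genes were too low to test, and counts that may hold both mates make low values less certain than their size implies.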

Other observations

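Within 500 kb of the clusters lie 29 other protein-coding genes, of which 22 were tested, 3 rose and 3 fell, with a median log2 fold change of 0.05. Over all tested genes 20.8% were called, 10.8% higher and 10% lower. TAF7, a subunit of the basal transcription factor TFIID whose gene lies between the beta and gamma clusters, had 125 ± 3.96 CPM in ADC and 118 ± 2.5 CPM in PBS (SD, n = 5 each) and was not called (log2 fold change 0.08, SE 0.04, edgeR adjusted p = 0.0955). DIAPH1, an actin-nucleating formin just beyond the last gamma exon on the other strand, fell to 337 ± 6.64 CPM in ADC, against 376 ± 10.2 CPM in PBS (log2 fold change -0.16, SE 0.03, edgeR adjusted p = 0.000263). ARAP3 rose to 34.7 ± 2.43 CPM in ADC, against 27.8 ± 1.81 CPM in PBS (0.32, SE 0.06, edgeR adjusted p = 0.000421), and GNPDA1 fell to 162 ± 4.95 CPM in ADC, against 188 ± 3.19 CPM in PBS (-0.21, SE 0.03, edgeR adjusted p = 1.51e-05).

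Protocadherin pseudogenes inside the clusters were close to silent. PCDHGB8P had 7 counts in ADC replicate 1 and 0 in the other libraries. PCDHGB9P had 8 counts in ADC replicate 2 and 6 in PBS replicate 4. PCDHB18P had 0 counts in every ADC library, against 1, 0, 4, 2 and 0 counts in PBS libraries.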
